A study of Mus musculus with 12 samples.

Results

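The 9 genes described here encode enzymes and a transporter of glucose production in the liver, enzymes that supply it with carbon, and the coactivator PGC-1α. They were taken by symbol (Pck1, Pck2, G6pc, Fbp1, Pcx, Slc37a4, Ppargc1a, Mdh1 and Got1), a rule that holds no threshold on measured values but was set when earlier results of these data were known, and all 9 were found among the 17432 genes of the deposited table. All 9 also passed the filter on low counts, which left 12344 genes to test. Liver RNA of 12 male wild-type C57BL/6J mice aged 8 to 10 weeks was sequenced, 1 library for each mouse. Mice of both groups had been synchronized for 3 days to daytime feeding, acclimated to the treadmill, refed for 3 h, and then had their food removed. The 6 Exercise mice ran at 14 m/min for 3 h, the 6 Sedentary mice rested over the same time, and all livers were sampled at the same time. The comparison asks how exercise in the fed state changes liver transcripts.

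Gluconeogenesis makes glucose from lactate, glycerol and the carbon of amino acids. Pyruvate carboxylase (Pcx) turns pyruvate into oxaloacetate in mitochondria, and phosphoenolpyruvate carboxykinase, cytosolic (Pck1) or mitochondrial (Pck2), turns oxaloacetate into phosphoenolpyruvate. Carbon leaves the mitochondria as malate or aspartate, and the cytosolic enzymes Mdh1 and Got1 turn these back into oxaloacetate. Fructose-1,6-bisphosphatase (Fbp1) and glucose-6-phosphatase (G6pc) catalyze the last irreversible steps, the latter with glucose 6-phosphate that the transporter Slc37a4 brings into the endoplasmic reticulum. Insulin is known to repress Pck1 and G6pc, and glucagon and glucocorticoids are known to raise Pck1. Ppargc1a encodes PGC-1α, a coactivator that fasting induces in the liver and that acts on the genes of this pathway.

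Total counts ran from 18745379 to 19324461 per library. Levels are given as CPM (counts scaled to the same library total, after TMM normalization), and a gene was called where the quasi-likelihood test of edgeR gave an adjusted p under 0.05 over all genes tested. The tissue label was checked against hepatocyte markers, which summed to 105974 to 144855 CPM in sedentary and 130070 to 149117 CPM in exercised livers. Of 31 marker genes of other cells and tissues that were tested, 8 changed, 2 higher and 6 lower. Of all genes tested, 42.4% changed, 21.1% higher and 21.3% lower. Cardiac and skeletal muscle markers, where all 3 genes tested were lower, summed to 9.62 to 19.7 CPM in sedentary livers and to 0 to 9.79 CPM in exercised livers. In endothelial markers 2 of 5 were higher and 1 was lower, and in stellate cell markers 2 of 6 were lower. The part of these cells in the results was not tested. Kidney, the other organ that makes glucose, was near 0, with at most 0.110 CPM summed over Slc34a1 and Umod. In whole liver RNA, fewer cells of a type and less RNA per cell cannot be told apart.

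Stretches before the transcription start of Pck1, Ppargc1a and G6pc are shown because the levels of these genes rose and because the stretches hold letters of response elements known from this pathway. They are the bases before the start that RefSeq gives on GRCm38.p6, ended where the GENCODE gene begins, written 5′ to 3′ in the direction of the gene, with the searched motif in capitals. The motif is TGACGT (a core of the cAMP response element) or its reverse complement ACGTCA in Pck1 and Ppargc1a, and TGTTTTG (the core of the insulin response sequence) in G6pc.
Pck1, chr2:173152823-173153047, plus strand: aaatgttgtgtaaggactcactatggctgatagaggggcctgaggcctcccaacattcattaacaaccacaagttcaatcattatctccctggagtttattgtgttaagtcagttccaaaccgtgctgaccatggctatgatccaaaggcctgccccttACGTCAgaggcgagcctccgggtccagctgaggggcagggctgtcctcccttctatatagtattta
Ppargc1a, chr5:51567727-51567975, minus strand: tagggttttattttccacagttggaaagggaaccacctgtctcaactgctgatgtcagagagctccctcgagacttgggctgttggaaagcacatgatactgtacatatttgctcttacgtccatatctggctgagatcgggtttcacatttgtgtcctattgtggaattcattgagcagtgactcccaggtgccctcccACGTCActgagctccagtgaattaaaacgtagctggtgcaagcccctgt
G6pc, chr11:101367466-101367560, plus strand: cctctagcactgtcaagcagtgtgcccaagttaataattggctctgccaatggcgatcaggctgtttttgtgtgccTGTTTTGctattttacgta
The cAMP response element core lay 91 to 86 bases before the RefSeq start of Pck1 and 50 to 45 bases before that of Ppargc1a. Slc37a4 also held it, at 44396885 to 44396890 on chromosome 9, which GENCODE places inside the gene. In all, 3 of the 9 members had TGACGT on either strand within 250 bases before a RefSeq start, against 6.47% of 32851 mouse promoters and 9.34% of the 12692 promoters of genes tested here. Members were counted as genes with a match before any of their starts, and Slc37a4 and Pcx had several starts. The shares are of single promoters, so they are not a like measure. TGTTTTG was found in G6pc, 174 to 168 bases before the start, and in Pck2, against 5.56% of all promoters and 4.02% of those of genes tested. No member had TGTTTAC (a forkhead core, 3.17% of all promoters) or the glucocorticoid response element that was searched (0.368%) in this window. No member held 2 of these motifs, so none overlapped, and a match describes letters only.

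After exercise, 5 of the 9 genes rose and 4 did not pass the test. The share of all genes tested that was higher was 21.1%, the share that was lower was 21.3%, and 42.4% changed in either direction (2603 genes higher and 2626 lower). With the library size alone as scaling this split was 1767 higher and 3735 lower, and in limma on log2(FPKM + 0.1) it was 1711 and 3713. The genes that rose were Pck1, Ppargc1a, Got1, G6pc and Slc37a4, with increases of 3.82-fold, 3.67-fold, 3.39-fold, 1.75-fold and 1.21-fold. On the scale of TMM-scaled CPM, each exercised liver was above each sedentary liver in these 5 genes, a pattern found in 11.7% of all genes tested, while 22.3% had groups that did not overlap in either direction. In FPKM, which is not TMM-scaled, this held for Pck1, Ppargc1a, Got1 and G6pc but not for Slc37a4. Increases of at least 2-fold were seen in Pck1, Ppargc1a and Got1, against 2.35% of all genes tested. Ordered by log2 fold change among the 2603 genes that were higher, Pck1 was at place 45, Ppargc1a at 54, Got1 at 62, G6pc at 470 and Slc37a4 at 2036.

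**Figure D1:**
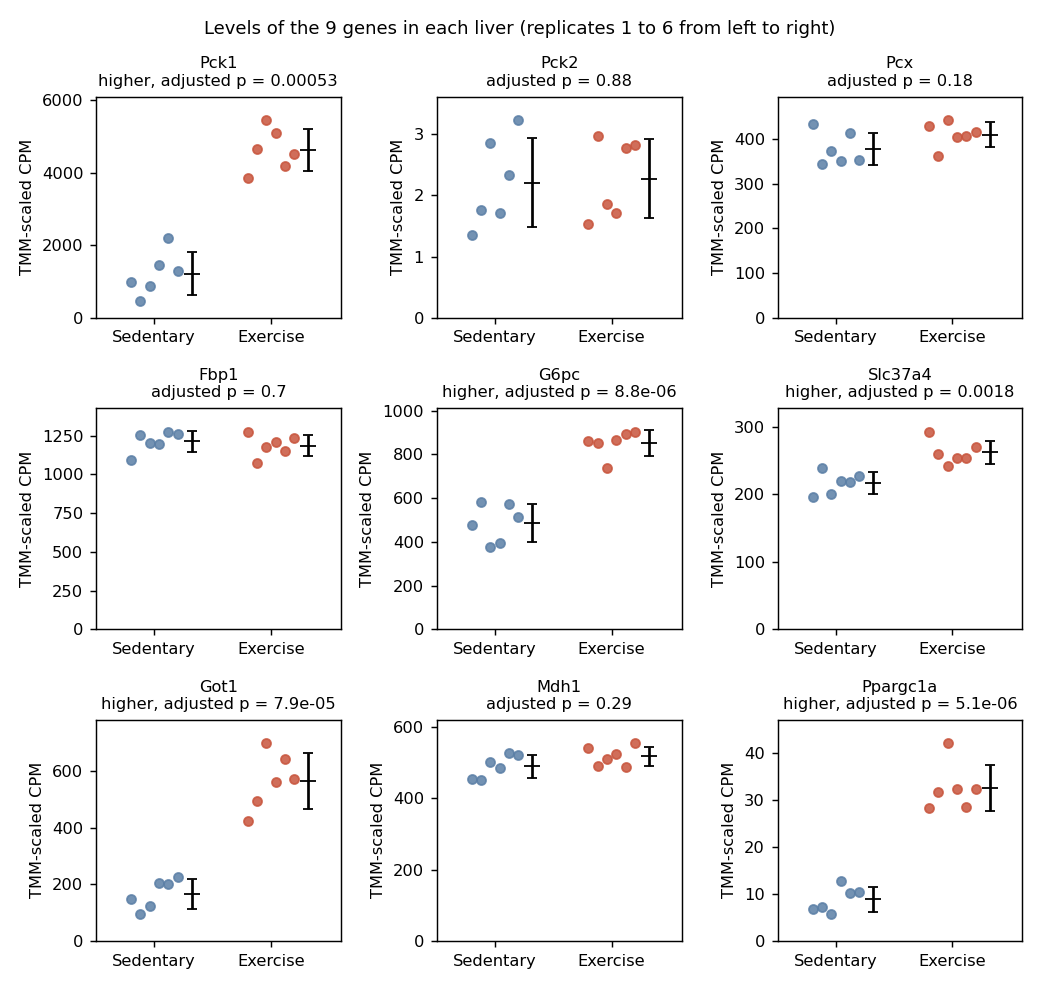
Level of each of the 9 genes (y axis, TMM-scaled CPM, from 0) in the 6 Sedentary and 6 Exercise livers, with 1 point for each liver and the mean ± SD beside the points. Exercised livers are above all sedentary livers in Pck1, G6pc, Slc37a4, Got1 and Ppargc1a, and the groups overlap in Pck2, Pcx, Fbp1 and Mdh1.

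Pck1 (gene ID 18534, chromosome 2 of GRCm38, 173153048 to 173159273), the cytosolic carboxykinase, had the largest fold change of the 9. Its level was 474 CPM in the lowest, 1140.3 in the median and 2201 in the highest sedentary liver, and 3856, 4592 and 5449.7 CPM in the exercised livers. The groups were far apart, with Sedentary replicate 5 the highest and Sedentary replicate 2 the lowest resting liver. Mean levels were 1214 ± 590.3 CPM (SD, n = 6) and 4629.8 ± 586 CPM (SD, n = 6), so the absolute spread was alike while the coefficient of variation was 48.6% at rest and 12.7% after exercise. In log2 units the increase was 1.93 with a standard error of 0.31 (edgeR, Benjamini-Hochberg adjusted p = 0.000531). Leaving out each liver in turn gave 1.77 to 2.19.

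Pck2 (gene ID 74551, chromosome 14, 55540266 to 55551242), the mitochondrial carboxykinase, was the least abundant member, with 27 to 65 counts in sedentary and 28 to 57 in exercised livers. Levels ran from 1.35 over a median of 2.05 to 3.23 CPM at rest and from 1.53 over 2.31 to 2.98 CPM after exercise, so that the exercised livers lay within the sedentary range. The log2 fold change of 0.049 had a 95% interval from -0.42 to 0.52 (adjusted p = 0.884, edgeR), and its sign turned with the library size alone as scaling. Its antisense gene Gm10876 overlaps it. The strand setting of the counting is not given in the sources used here.

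Pcx (gene ID 18563, chromosome 19, 4510472 to 4621752), the first enzyme of the route from pyruvate, did not pass the test. It was at 343, 363 and 433 CPM in the lowest, median and highest sedentary liver and at 362, 411 and 442 CPM in the exercised livers. Of the exercised livers, 5 lay above the sedentary median and 1 above the highest sedentary liver. The log2 fold change was 0.12 with a 95% interval from -0.026 to 0.26 (adjusted p = 0.18, edgeR). Lrfn4 overlaps Pcx on the opposite strand.

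Fbp1 (gene ID 14121, chromosome 13, 62864753 to 62888282), which removes a phosphate from fructose 1,6-bisphosphate, did not pass the test. Its lowest, median and highest levels were 1092, 1229 and 1274 CPM at rest and 1073, 1194 and 1273 CPM after exercise. The ranges nearly coincided, and the log2 fold change was -0.033 (95% interval -0.16 to 0.093, adjusted p = 0.696, edgeR). The coefficient of variation was 5.58% in sedentary and 5.95% in exercised livers.

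G6pc (gene ID 14377, chromosome 11, 101367561 to 101377903), the catalytic subunit of glucose-6-phosphatase, rose less than Pck1 but without overlap. Sedentary livers had 377 CPM at the lowest, 495 at the median and 583 at the highest, and exercised livers had 739.9, 863 and 903 CPM. Exercise replicate 3 was the low one, and each other exercised liver had at least 852 CPM. The increase was 0.81 in log2 units with a standard error of 0.10 (edgeR, adjusted p = 8.81e-06), and 0.85 without Exercise replicate 3. The ubiquitous form G6pc3 fell, from 6.04 ± 0.295 to 4.24 ± 0.824 CPM, a log2 difference of -0.51 (edgeR, adjusted p = 0.00166). Fbp2, the muscle form of the bisphosphatase, had at most 3 counts in any liver and was not tested.

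Slc37a4 (gene ID 14385, chromosome 9, 44396852 to 44402968), the glucose 6-phosphate transporter, had the smallest increase. Its levels were 196, 219 and 239 CPM in the lowest, median and highest sedentary liver and 242, 257 and 293 CPM in the exercised livers. The gap between the groups was narrow, between Sedentary replicate 2 and Exercise replicate 3, and it was not there in FPKM or in unscaled counts. In FPKM the groups overlapped, at 101 to 129 in sedentary and 109 to 139 in exercised livers, with Exercise replicates 3, 4 and 5 below Sedentary replicate 2. The increase was 0.27 in log2 units, with a standard error of 0.063 (edgeR, adjusted p = 0.00184). With the library size alone as scaling it was 0.18 and missed the threshold (adjusted p = 0.0521, edgeR), as it did in limma on log2(FPKM + 0.1) (adjusted p = 0.0558). Its adjusted p stayed at or below 0.00595 in each fit without 1 liver.

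Got1 (gene ID 14718, chromosome 19, 43499752 to 43524605), the cytosolic aspartate aminotransferase, rose by nearly as much as Pck1 and Ppargc1a. It was at 94.6, 176 and 227 CPM in the lowest, median and highest sedentary liver and at 426, 568 and 699 CPM in the exercised livers. The groups did not overlap, and Exercise replicate 1 was the lowest exercised liver. The sedentary mean was 167 ± 52.9 CPM (SD, n = 6) and the exercised mean 567 ± 98.8 CPM. The difference was 1.76 in log2 units with a standard error of 0.22 (edgeR, adjusted p = 7.94e-05), and 1.64 to 1.87 with 1 liver left out.

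Mdh1 (gene ID 17449, chromosome 11, 21556787 to 21572367), the cytosolic malate dehydrogenase, did not pass the test. It was at 451, 493 and 527 CPM in the lowest, median and highest sedentary liver and at 488, 517 and 554 CPM after exercise, and 2 exercised livers exceeded the sedentary range. The log2 fold change of 0.081 (95% interval -0.043 to 0.21, adjusted p = 0.293, edgeR) turned to -0.014 with the library size alone. Wdpcp overlaps Mdh1 on the opposite strand.

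Ppargc1a (gene ID 19017, chromosome 5, 51454250 to 51567726) was far less abundant than the enzymes other than Pck2, with 113 to 252 counts at rest and 518 to 727 after exercise. Its level was 5.76, 8.74 and 12.7 CPM in the lowest, median and highest sedentary liver and 28.3, 32.1 and 42.1 CPM in the exercised livers. The groups did not overlap, and Exercise replicate 3 was alone at the top. The increase in log2 units was 1.88 with a standard error of 0.18 (edgeR, adjusted p = 5.09e-06), and 1.79 without Exercise replicate 3. The related coactivator Ppargc1b also rose, from 5.54 ± 1.22 to 14.3 ± 2.92 CPM, a log2 difference of 1.37 (edgeR, adjusted p = 4.68e-06).

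**Figure D2:**
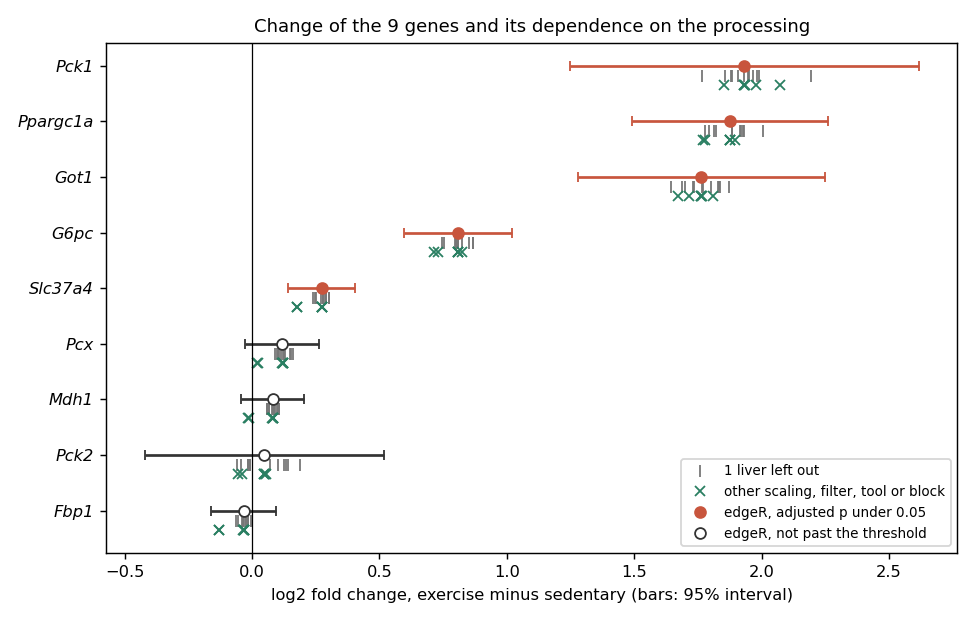
Log2 fold change of each gene (x axis, exercise minus sedentary), with 95% intervals as bars, ticks for 12 fits with 1 liver removed in each, and crosses for other scalings, filters, tools and the replicate block. The estimates of Pck1, Ppargc1a, Got1 and G6pc are 0.71 or more in all fits, that of Slc37a4 moves between 0.18 and 0.30, and the other 4 genes lie around 0.

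Single livers did not rank alike in all members on the scale of TMM-scaled CPM. Among the exercised livers, Exercise replicate 3 was the highest for 4 members (Pck1, Pcx, Ppargc1a and Got1) and the lowest for 2 (G6pc and Slc37a4). Exercise replicate 1 was the lowest for 4 members (Pck1, Pck2, Ppargc1a and Got1) and the highest for Fbp1 and Slc37a4. At rest, Sedentary replicate 2 was the lowest for Pck1, Pcx, Mdh1 and Got1 but the highest for G6pc and Slc37a4. Some of these ranks differed in FPKM. There Pcx was highest after exercise in Exercise replicate 1 and lowest at rest in Sedentary replicate 4. Pck2 was lowest after exercise in Exercise replicate 4, and Mdh1 lowest at rest in Sedentary replicate 1. In Pck1, Got1 and Ppargc1a, Sedentary replicates 1 to 3 all lay below Sedentary replicates 4 to 6. The levels were 474 to 989 against 1292 to 2201 CPM in Pck1 and 94.6 to 149 against 203 to 227 CPM in Got1. In Ppargc1a they were 5.76 to 7.20 against 10.3 to 12.7 CPM. In the other members these replicates overlapped. The split was not confined to members. Of genes named below, Tat, Fkbp5, Il1r1, Sds, Sdsl, Angptl4, Tmc7, Trp53inp1, Tbc1d8 and Gin1 had it too, while Pklr and Cebpb did not. In Tat the levels were 1273 to 1387 against 1696 to 1979 CPM. This split was seen after the values were known, and its cause was not tested.

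Levels can be compared between genes only per transcript length, as FPKM, and are ordered here within each group. Across sedentary livers the order of mean FPKM was Fbp1 at 877 ± 53.4 (SD, n = 6), Pck1 at 479 ± 216, Mdh1 at 265 ± 12.7, G6pc at 228 ± 42.9, Slc37a4 at 111 ± 10.9, Pcx at 95.4 ± 8.55, Got1 at 85.6 ± 26.3, Ppargc1a at 1.44 ± 0.429 and Pck2 at 1.07 ± 0.385. Neighbours in this order overlapped in their ranges, except that G6pc was above Slc37a4 and Got1 above Ppargc1a in all livers without overlap. After exercise Pck1 came first with 1728 ± 191 FPKM, ahead of Fbp1 at 802 ± 41.8 in 6 of 6 livers. Got1, at 272 ± 43.3 FPKM, had moved up beside Mdh1 at 263 ± 13.3, from which its range was not separate, and it also overlapped G6pc at 374 ± 34.4. Ppargc1a, at 5.00 ± 0.586 FPKM, was then above Pck2, at 1.03 ± 0.386 FPKM, without overlap.

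**Figure D3:**
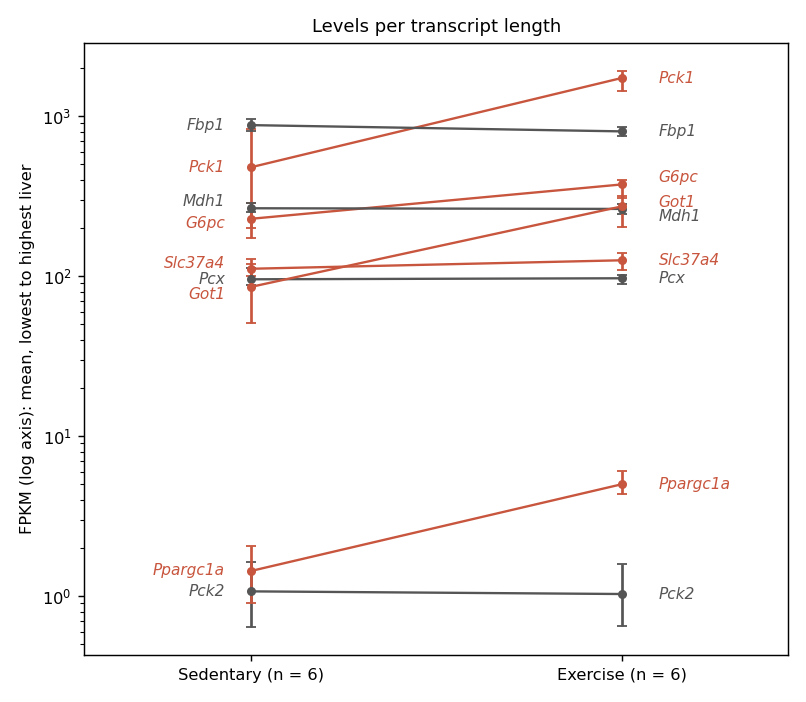
Mean level per transcript length of the 9 genes (y axis, FPKM on a log axis) in Sedentary and Exercise livers, with bars from the lowest to the highest of 6 livers and the genes that rose in red. Pck1 crosses Fbp1 to come first after exercise, and Got1 reaches the level of Mdh1.

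At irreversible points of the route a different enzyme drives the opposite step of glycolysis, so ratios within a liver, which do not depend on scaling between libraries, were compared. Pck1 stands against pyruvate kinase (Pklr) and Fbp1 against phosphofructokinase (Pfkl). The ratio of Pck1 to Pklr was 0.798, 2.55 and 6.58 in the lowest, median and highest sedentary liver and 8.73, 13.5 and 24.9 in the exercised livers, on the FPKM scale. This is a 5.53-fold higher ratio without overlap. The p-value of the exact permutation test, two-sided, was 0.00216, which is the lowest value that 6 against 6 livers can give, and 0.00289 after adjustment over the 4 ratios computed. Sedentary replicate 5, the resting liver with the most Pck1, came nearest to the exercised livers. Mean log2 FPKM differed by 1.98 in Pck1 and by -0.49 in Pklr. The ratio thus mostly repeats the change of Pck1, whose groups did not overlap by itself either.

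The ratio of Fbp1 to Pfkl was 89.4, 96.9 and 109 at rest and 74.6, 91.1 and 103 after exercise, with overlap (two-sided exact permutation test, p = 0.128). Of the 12 tests with 1 liver left out, 11 kept this result, at exact p up to 0.268. Only when Exercise replicate 6 was left out was this ratio lower after exercise by the same test (log2 difference -0.16, exact p = 0.0173, not adjusted). The cytosolic form of the carboxykinase outweighed the mitochondrial one at rest, with 252 to 701 times its FPKM, and after exercise with 1150.3 to 2927 times (two-sided exact permutation test, p = 0.00216, adjusted 0.00289). Mean log2 FPKM differed by 1.98 in Pck1 and by -0.062 in Pck2, so this ratio too mostly repeats the change of Pck1.

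**Figure D4:**
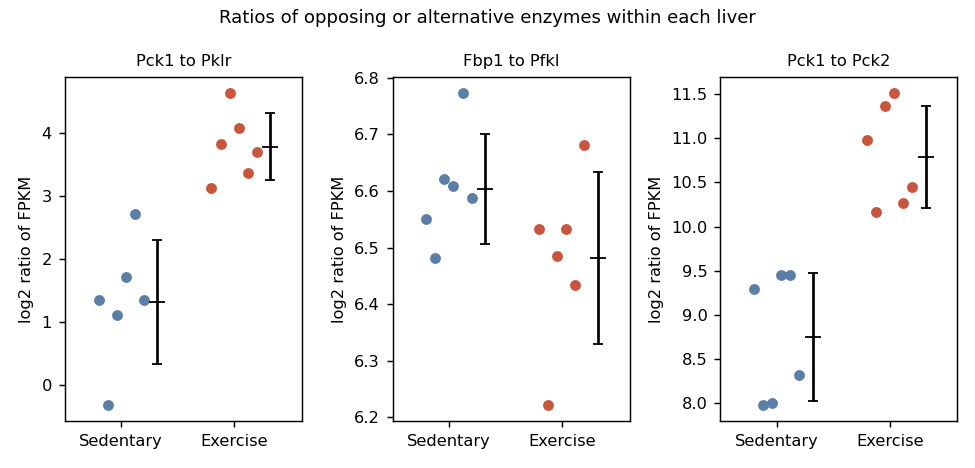
Log2 ratio of FPKM within each liver (y axis) for 2 pairs of enzymes of opposite steps and for the cytosolic against the mitochondrial carboxykinase, with 1 point for each of 6 livers per group and the mean ± SD beside them. The groups are apart for Pck1 to Pklr and Pck1 to Pck2 and overlap for Fbp1 to Pfkl.

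Since FPKM is divided by a length that depends on which transcripts the reads were assigned to, count and FPKM together give the length used for each gene in each liver. For 7 of the 9 members this length varied by less than 1% between livers. In Ppargc1a, for which GENCODE lists 5 transcripts, it was 6396 ± 37.4 bases (SD, n = 6) at rest and 6290.1 ± 59.6 bases after exercise, a shift of -1.66% (two-sided exact permutation test, p = 0.00866, 1 of 2 such tests). The groups overlapped in Exercise replicate 3, which at 6396 bases lay among the sedentary livers at 6352 to 6444, while the other exercised livers were at 6311 or below. In Pck2 the length ranged from 1921 to 2428 bases at rest and from 1903 to 2530.4 after exercise (two-sided exact permutation test, p = 0.729). FPKM was given to 2 decimals, and both genes were low at rest, at 0.91 to 2.06 FPKM in Ppargc1a and 0.64 to 1.64 in Pck2. Rounding of FPKM thus adds to the spread of their lengths.

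The genes around the route were read from 7 lists. Of 19 transcriptional regulators of the pathway, all tested, 12 rose, 3 fell and 4 did not pass the test, and the median log2 fold change was 0.59 against -0.0028 for all genes tested. The largest changes were in Nr4a1, a nuclear receptor induced by cAMP, from 0.728 ± 0.193 to 2.71 ± 0.734 CPM (log2 fold change 1.88), in Ppargc1b and in Cebpb, a C/EBP factor (log2 fold change 1.34, adjusted p = 8.69e-08, edgeR). Of 6 enzymes through which amino acid carbon enters, 4 rose and 2 did not pass the test. Tat, which breaks down tyrosine, rose from 1569 ± 278 to 5563 ± 304 CPM, a log2 difference of 1.83 (edgeR, adjusted p = 1.03e-09). Sds, the serine dehydratase that yields pyruvate, and its relative Sdsl rose by 0.95 and 0.93 in log2 units (edgeR, adjusted p = 0.0108 and 1.09e-05).

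Of 4 genes of glycerol entry that were tested, 3 fell, against 21.3% of all genes tested. Aqp9, the glycerol channel of hepatocytes, fell by 0.38 on the log2 scale, and the glycerol 3-phosphate dehydrogenases Gpd1 and Gpd2 by 0.45 and 0.46 (adjusted p = 8.87e-05, 3.34e-05 and 0.000507, edgeR). The glycerol kinase Gk did not pass the test (log2 fold change -0.040, adjusted p = 0.738, edgeR). Of 6 tested genes of lactate and pyruvate entry, 1 changed, the lactate and pyruvate transporter Slc16a1, which fell by 0.57 on the log2 scale (adjusted p = 2.99e-05, edgeR). Of 7 genes listed as shuttle partners, 4 fell and 3 did not pass the test, with a median log2 fold change of -0.17. The list also holds carriers outside the malate-aspartate shuttle, for dicarboxylates and citrate. Those that fell were the mitochondrial carriers Slc25a10 for dicarboxylates, Slc25a11 for oxoglutarate and malate and Slc25a1 for citrate, with log2 fold changes of -0.64, -0.44 and -0.31, and Got2. The carriers Slc25a12 and Slc25a13 did not pass the test (adjusted p = 0.0695 and 0.603, edgeR), nor did Mdh2. Got2, the mitochondrial counterpart of Got1, went from 610.1 ± 35.8 to 553 ± 13.1 CPM, a log2 difference of -0.14 (edgeR, adjusted p = 0.04), a call that was lost in 9 of the 12 fits without 1 liver, at adjusted p up to 0.107. Mdh2, the mitochondrial counterpart of Mdh1, was at 240.04 ± 10.3 and 249.6 ± 16.3 CPM, a log2 difference of 0.056 (edgeR, adjusted p = 0.449).

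Among the 7 enzymes that glycolysis and gluconeogenesis share, 1 changed, Tpi1 with a log2 fold change of -0.17 (adjusted p = 0.0235, edgeR), and the median was 0.011. This call was lost without Sedentary replicate 3 or 6 or Exercise replicate 2, 3 or 5 (adjusted p up to 0.0613). Among genes of the opposing glycolytic steps, Pfkfb1, the liver form of the enzyme that makes and degrades fructose 2,6-bisphosphate, rose (log2 fold change 0.45, adjusted p = 0.0178, edgeR), a call lost with the library size alone (adjusted p = 0.0789) and in limma on FPKM (adjusted p = 0.0633). Pklr was at 500.0 ± 105 and 384 ± 88.01 CPM, a log2 difference of -0.38 (adjusted p = 0.103 in edgeR, 0.041 in DESeq2 and 0.0387 in limma on FPKM), and Pfkl at 32.5 ± 2.21 and 34.5 ± 1.97 CPM, a log2 difference of 0.087 (edgeR, adjusted p = 0.255).

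**Figure D5:**
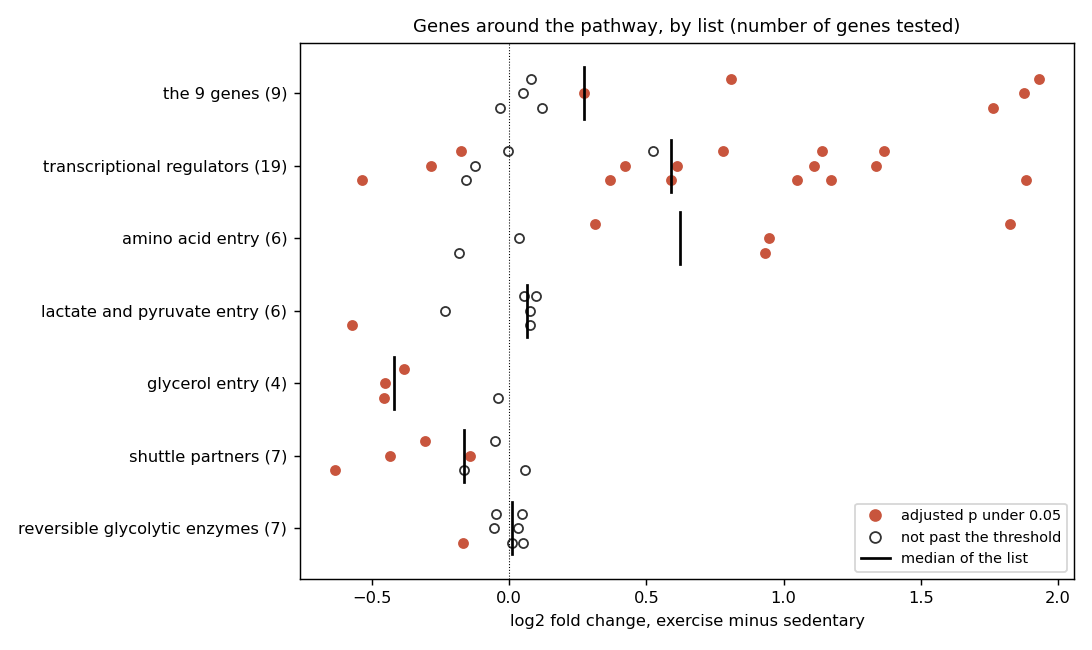
Log2 fold change (x axis, exercise minus sedentary) of each tested gene in the set of 9 and in 6 lists around the pathway, filled where the adjusted p is under 0.05, with the median of each list as a line. Regulators and amino acid entry lie mostly to the right, glycerol entry and shuttle partners to the left, and shared glycolytic enzymes around 0.

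To show which other genes followed the same course over the 12 livers, the root mean square difference of log2 levels, each centred on its gene's mean, was taken against the 7090 tested genes that averaged 10 CPM or more. The 5 genes nearest to Pck1 were Il1r1 (0.24 on the log2 scale), Got1 (0.31), Fkbp5 (0.32), Tmc7 (0.34) and Trp53inp1 (0.34), so a member stood second, and Ppargc1a was at place 12. Nearest to Ppargc1a were Tmc7 (0.18), Angptl4 (0.19), Tat (0.19), Tbc1d8 (0.20) and Gin1 (0.20), with Got1 at place 11 and Pck1 at place 53. G6pc was nearest to Slc15a4 (0.15), Snrnp48, Rusc2, Ei24 and Sertad2 (0.18 to 0.19), and of the members Slc37a4 came closest to it, at place 606. These distances describe 12 livers of which 6 are in each group, and a gene with a like difference between the groups comes out near. The genes listed as nearest to Pck1 and to Ppargc1a also had the split of the sedentary livers described above.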

How the data were processed

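Liver RNA of 6 Exercise and 6 Sedentary mice was sequenced, 1 library per mouse. The authors deposited estimated counts per gene and FPKM values. The submitters' processing notes name Bowtie2 2.3.4.3, RSEM 1.3.1 and the mm10 genome. The annotation and the strand setting are not given in the sources used here. Of the estimated counts, 31.3% were not whole, since RSEM divides reads between transcripts, and they were rounded. Total counts were 18745379 to 19324461, and 0 of the 30 pairs of libraries within groups were identical (pairs between groups were not compared).

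Genes passing filterByExpr (minimum count 10) were tested with edgeR 4.0.16 (TMM scaling, robust quasi-likelihood test, Benjamini-Hochberg adjustment over all genes tested, threshold 0.05) in R 4.3.3, without a replicate block. Standard errors and 95% intervals come from the same fit. The code was tested on simulated data. Within-liver FPKM ratios and lengths (count over FPKM, scaled by the library total) were compared by two-sided exact permutation tests. Their code was checked against scipy 1.17.1. Alternatives were RLE scaling, the library size alone, no filter beyond 1 count, DESeq2 1.42.0, limma 3.58.1 on log2(FPKM + 0.1), the replicate block, a threshold of 0.01 and leaving out each liver.

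The genes named were the 9 members, in each of 7 lists the up to 3 called genes with the largest change and a mean of at least 1 CPM, the opposing enzymes Pklr and Pfkl, the mitochondrial forms Mdh2 and Got2, the paralogs G6pc3 and Fbp2, and the 5 genes most alike to Pck1, G6pc and Ppargc1a. One further gene fell under this rule and is not reported here. The members and lists were chosen with earlier results of these data known. Positions are from GENCODE on GRCm38, and promoter sequences are from RefSeq on GRCm38.p6.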

Additional observations from a re-analysis of the deposited data

Results flagged for a closer look

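Among 98 groups of 6 livers checked for a sample far from the others, 3 had one, where chance gives about 4.9, and all 3 were in Exercise replicate 3. In that liver G6pc was low, at 739.9 CPM, while the next lowest exercised liver had 852 CPM. Ppargc1a was high there, at 42.1 CPM with the next at 32.5 CPM. Sertad2, one of the 5 genes nearest to G6pc, was high as well, at 26.8 CPM with the next at 23.5 CPM. The gap took up 0.687, 0.698 and 0.743 of the range of the exercised livers, above Dixon's critical value for 6 samples. These flags are on TMM-scaled CPM, and Exercise replicate 3 had the lowest TMM factor of all libraries, 0.914. In FPKM only the gap of G6pc stayed above that value (306 in this liver, next 375, highest 399). The gaps of Ppargc1a (6.02, next 5.12, lowest 4.36) and Sertad2 (4.46, next 4.16, lowest 3.90) were below it in FPKM. Without Exercise replicate 3 the log2 fold change was 0.85 for G6pc and 1.79 for Ppargc1a.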

How the results depend on the processing

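The log2 fold changes of Pck1, G6pc, Ppargc1a and Got1 kept their direction and stayed past the threshold in all alternatives run, and members called numbered 5 in each fit without 1 liver, at a threshold of 0.01 and by DESeq2, but 4 with the library size alone and in limma on FPKM, where the Slc37a4 log2 fold change was 0.18 in both. The Pck2 log2 fold change was -0.041 with the library size alone, -0.055 in limma on FPKM and -0.059 to 0.19 with 1 liver left out, and the Mdh1 log2 fold change was -0.014 in both of the former. The Pfkl log2 fold change was -0.010 and -0.0068 there, and the Mdh2 log2 fold change -0.039 and -0.041. The Fbp1 to Pfkl FPKM ratio ranged from -0.16 to -0.071 (log2 difference) and the Pck2 length implied by FPKM from -0.016 to 0.066 with 1 liver left out. Genes called in opposing glycolytic enzymes were 2 (1 higher, 1 lower), but 1 (lower) with the library size alone and 3 (1 higher, 2 lower) by DESeq2, and 2 (both lower) in limma on FPKM. In reversible glycolytic enzymes 1 gene was called, but 0 with the replicate block and 0 to 1 with 1 liver left out. The causes were not tested. Genes called in the whole table were 5229, with 4739 to 5222 without 1 liver and 3584 at a threshold of 0.01. Same-numbered livers of the groups did not deviate together (correlations from -0.099 to 0.16, over 0.1 in 2 of 6 pairs, and 2 of 6 sedentary livers correlated best with their own number), so the numbers were not taken as pairs. With the replicate block 4956 genes and 5 of 9 members were called, the Pck1 log2 fold change was 2.07 (adjusted p = 0.00521, edgeR), and the calls of Tpi1 and Got2 were lost. Depth limits Pck2 most, with at most 65 counts in a liver.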

Other observations

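Glucose production is strongest in hepatocytes near the portal vein, so 6 periportal and 6 pericentral genes were also read. The genes named here were chosen after their values were seen. Of the periportal genes 2 were higher (Sds, and Ass1 of the urea cycle) and 1 lower (Hal, which breaks down histidine). Ass1 was at 5799 ± 939 and 7371 ± 547 CPM (SD, n = 6 each, log2 fold change 0.35) and Hal at 284 ± 69.1 and 207 ± 36.5 CPM (log2 fold change -0.45). Of the pericentral genes 1 was higher and 1 lower. Glul, the glutamine synthetase, fell from 868 ± 84.4 to 518 ± 37.0 CPM (log2 fold change -0.74), and the glutamate transporter Slc1a2 rose from 99.5 ± 15.4 to 143 ± 22.6 CPM (log2 fold change 0.53). The lists thus moved in both directions, with medians of 0.098 and 0.060 on the log2 scale against -0.0028 for all genes tested.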
